A study of Ovis aries with 36 samples.

Results

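A group of 10 genes of the muscle Z-disc, costamere and sarcolemma was followed through fetal sheep tissues, namely NRAP, SYNPO2, SYNPO2L, LDB3, MYOZ1, TCAP, PARVB, SGCA, MURC and TRIM72. The list was set by the role of the encoded proteins, with earlier results of these data known, and the loci were found by name. All 10 had a locus of their name in every tissue, among 22851 gene names in the series. Libraries were made from longissimus dorsi muscle, the subcutaneous adipose depot near the shoulder blade and the perirenal adipose depot of late-gestation fetuses. The 26 fetuses came from 15 Polypay ewes bred to a single sire and fed 1 of 3 main energy sources from mid-gestation on. HY stood for alfalfa haylage, a source of fiber, CN for corn, a source of starch, and DG for corn distillers grains in dried form, which bring fat and protein along with fiber. Intake of CN and DG was limited to match the energy of HY, which was fed freely, and the CN diet held less protein. No untreated group was part of the design, so each diet was compared with the other ones. RNA was pooled into 36 libraries, 4 per diet and tissue, of which 2 came from female fetuses (F1, F2) and 2 from male fetuses (M1, M2). Some littermates were split over pools of the same diet and others shared a pool, so the 4 pools of a diet are not fully independent. The study lists a single fetus for the second female CN pool (CN F2). The spread is therefore that of pooled animals except in this library.

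The sarcomere, the contractile unit of striated muscle, is bounded by Z-discs, where the thin filaments of neighbouring units are anchored. At the costamere the outermost Z-discs are tied to the muscle cell membrane, the sarcolemma, through integrin-linked and dystrophin-linked protein complexes. Folds of that membrane called caveolae, together with a repair machinery, protect it against the strain of contraction. Within the 10 genes, NRAP encodes a nebulin-related scaffold of growing myofibrils, and SYNPO2 and SYNPO2L encode the actin-binding and filamin-binding proteins myopodin and its muscle relative CHAP. LDB3 (also known as ZASP or cypher) holds the Z-disc under load, MYOZ1 encodes calsarcin-2, a calcineurin-binding Z-disc protein of fast fibers, and TCAP encodes telethonin, the cap of titin. PARVB encodes beta-parvin, a partner of integrin-linked kinase at the costamere, and SGCA encodes alpha-sarcoglycan of the dystrophin complex. MURC (also known as CAVIN4) encodes a muscle protein of caveolae, and TRIM72 encodes MG53, which takes part in membrane repair.

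Depth was uneven between tissues. Total counts per library ranged from 13749762 to 29625146 in muscle, from 6705766 to 20272024 in subcutaneous fat and from 7802700 to 15913813 in perirenal fat. In muscle the mean total of the DG pools was 1.43 times and that of the HY pools 1.27 times that of the CN pools. The tissue labels were checked with 18 skeletal muscle marker genes found by name, such as ACTA1 and CKM, which encode skeletal actin and muscle creatine kinase. Their summed level was 129008 to 189810 CPM (counts scaled to 1000000 per library) in the muscle pools and 48.2 to 899.6 CPM in the perirenal pools. In the subcutaneous pools it ranged from 1014 to 163145 CPM, a 161-fold spread, and 2 of the 12 subcutaneous pools, DG F1 and HY F2, lay within the range of muscle itself. Adipocyte markers summed to 6.84 to 60.1 CPM in muscle, 1763 to 10156 CPM in subcutaneous fat and 6486 to 15641 CPM in perirenal fat.

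The positions of the loci are given on build Oar_v3.1, as listed for muscle. NRAP lay at chr22:33012947-33096896, SYNPO2 at chr6:6405601-6608538, SYNPO2L at chr16:7986542-7989083, LDB3 at chr25:40916849-40979027 and MYOZ1 at chr25:29490833-29502920. PARVB lay at chr3:218742628-218856395, SGCA at chr11:36013246-36027785, MURC at chr2:22404587-22447180 and TRIM72 at chr24:27289401-27297936. TCAP could not be separated from its neighbours, since its muscle locus at chr11:39597464-39630220 also held PNMT and STARD3. Each locus spans a whole gene, introns included, and no exon or UTR was resolved. The RefSeq annotation of a newer assembly (ARS-UI_Ramb_v3.0) placed these genes on the same chromosomes except for SYNPO2L. It also had TCAP between STARD3 and PNMT. SYNPO2L stands there on chromosome 25 between MYOZ1 and SEC24C, and not on chromosome 16. The locus with the name SYNPO2L therefore is reported as named, with its identity uncertain.

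In muscle, 4 of the 10 genes were higher in fetuses from HY-fed than from CN-fed dams at a false discovery rate (FDR) of 0.05. These were SYNPO2, NRAP, SYNPO2L and PARVB, with fold changes of 3.69, 2.20, 2.77 and 1.80 (edgeR quasi-likelihood test over 18573 loci, 4 pools per diet). No gene of the 10 was lower. Among all loci tested, 2.44% were called higher in HY and 2.69% were called in either direction. The study itself named NRAP, SYNPO2L, TCAP, PARVB, TRIM72 and SGCA from these same muscle samples, so their direction here is not independent evidence. It called them lower in CN than in both other diets, in its own test at an FDR of 0.05. In this edgeR test TCAP, TRIM72 and SGCA were not called in HY over CN, and none of these genes was called in DG over CN. In bulk tissue, a smaller share of fibers and less RNA of a gene per fiber cannot be told apart.

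**Figure D1:**
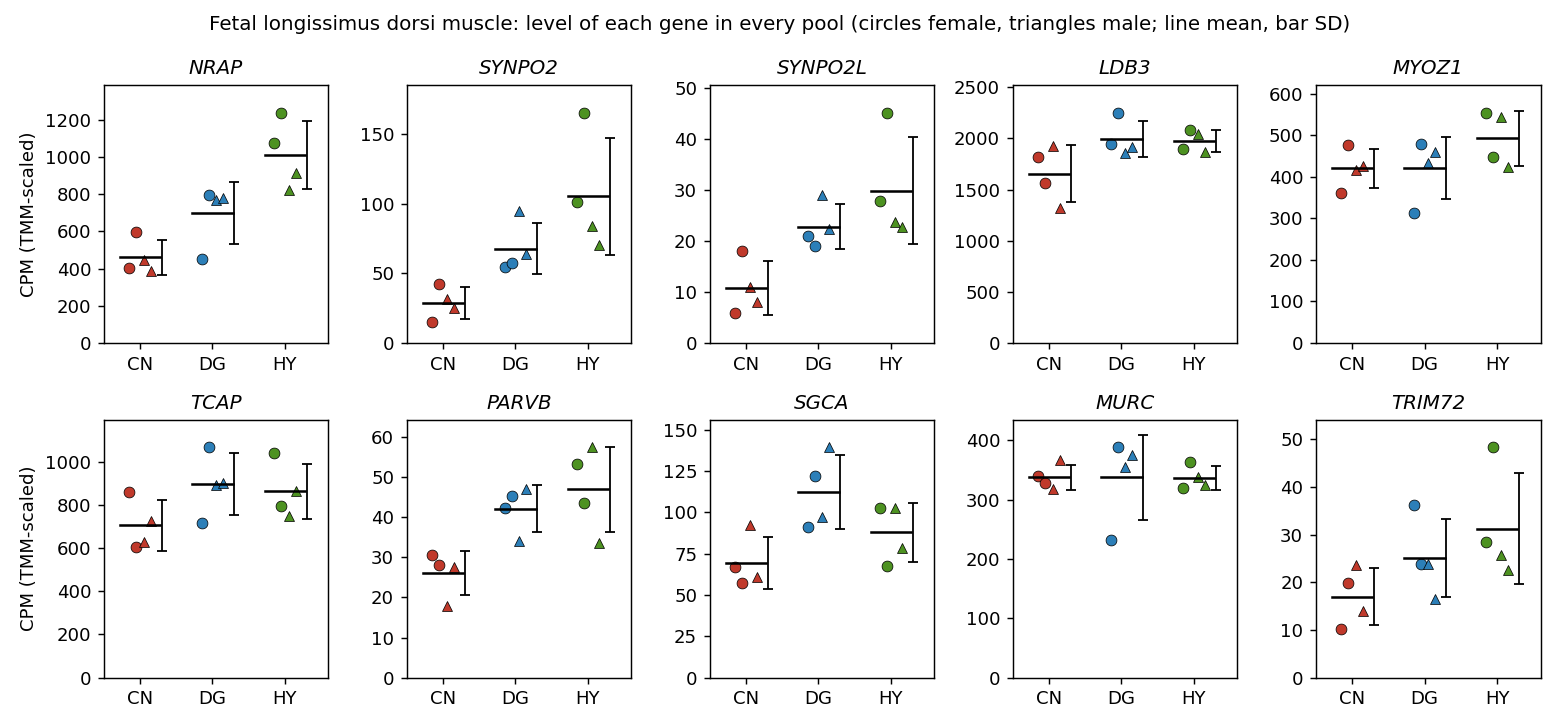
Level of the 10 genes in the 12 muscle pools. Each panel is 1 gene, the x axis gives the maternal diet, the y axis gives CPM on a linear scale from 0, circles are female and triangles male pools, the line is the mean and the bar the SD of 4 pools. For SYNPO2, SYNPO2L, PARVB and NRAP every HY pool lay above every CN pool, whereas the 3 diets of MURC had means of 338, 337 and 337 CPM.

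Levels per pool are given as CPM after TMM scaling, in the order F1, F2, M1 and M2. SYNPO2 was measured at 15.0, 42.6, 31.2 and 25.2 CPM in the CN pools, 54.5, 57.6, 94.5 and 64.0 CPM in the DG pools and 101, 165, 84.3 and 70.3 CPM in the HY pools. The CN pools lay below all 8 other pools, and CN F1 was the lowest and HY F2 the highest of the 12. The log2 fold change of HY over CN was 1.89 (SE 0.31, edgeR FDR = 0.0123), with group means of 105 ± 42.0 and 28.5 ± 11.5 CPM (SD, n = 4). For DG over CN it was 1.24 (SE 0.31, edgeR FDR = 0.0745).

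NRAP, the scaffold on which new myofibrils are assembled, was at 404, 598, 448 and 388 CPM in CN, 453, 794, 768 and 780 CPM in DG and 1074, 1239, 822 and 914 CPM in HY. The 3 diets were ordered CN, DG, HY, and the HY pools overlapped neither of the other diets. DG F1 stood apart from the other DG pools and lay within the CN range. HY exceeded CN by 1.14 on the log2 scale (SE 0.20, edgeR FDR = 0.0151), DG exceeded CN by 0.60 (SE 0.20, edgeR FDR = 0.170), and DG was below HY by a log2 difference of -0.53 (SE 0.20, unadjusted p = 0.0182, edgeR FDR = 0.9997). DG lay below HY without overlap in 0.937% of loci.

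SYNPO2L, the Z-disc relative of SYNPO2, had few reads, 101 to 1090 per muscle library. Its levels were 5.89, 18.1, 10.95 and 8.05 CPM in CN, 20.9, 19.0, 29.0 and 22.4 CPM in DG and 27.8, 45.2, 23.6 and 22.8 CPM in HY. No CN pool reached the lowest pool of either other diet. The log2 fold changes were 1.47 for HY over CN (SE 0.31, edgeR FDR = 0.0262) and 1.08 for DG over CN (SE 0.30, edgeR FDR = 0.108).

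PARVB was the called gene of the costamere. Its levels were 30.6, 27.99, 18.0 and 27.7 CPM in CN, 42.2, 45.2, 33.9 and 47.1 CPM in DG and 53.1, 43.6, 57.4 and 33.5 CPM in HY. The highest CN pool lay below the lowest pool of DG and of HY. HY over CN gave a log2 fold change of 0.85 (SE 0.19, edgeR FDR = 0.0341) and DG over CN one of 0.69 (SE 0.19, edgeR FDR = 0.0964). With pool number as a block PARVB missed the threshold in HY over CN (edgeR FDR = 0.0580), which left 3 of the 4 calls, with 1.37% of loci called. The nearest relative in the same complex, PARVA, gave 0.13 for HY over CN (SE 0.12, edgeR FDR = 0.573).

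SGCA, of the dystrophin complex, had its highest levels in DG. It was measured at 66.8, 57.1, 92.2 and 60.9 CPM in CN, 91.2, 122, 97.5 and 139 CPM in DG and 103, 67.6, 103 and 78.4 CPM in HY. All DG pools but the lowest lay above every CN pool, and CN M1 lay just above that one. DG over CN gave a log2 fold change of 0.70 (SE 0.19, edgeR FDR = 0.0900) and HY over CN one of 0.35 (SE 0.19, edgeR FDR = 0.316). Of its partners in the same complex, SGCB and SGCD gave log2 fold changes of HY over CN of 0.04 and 0.40, with edgeR FDR of 0.885 and 0.367.

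TRIM72, the membrane repair gene, was at 10.3, 19.96, 23.7 and 13.9 CPM in CN, 36.3, 23.9, 23.9 and 16.5 CPM in DG and 28.4, 48.3, 25.7 and 22.6 CPM in HY. The groups overlapped by CN M1 alone in the case of HY. The log2 fold change of HY over CN was 0.88 (SE 0.30, 95% interval 0.30 to 1.47), but its edgeR FDR was 0.117. For DG over CN it was 0.57 (SE 0.30, edgeR FDR = 0.361).

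The remaining 4 genes differed less between diets. TCAP was at 604 to 861 CPM in CN, 716 to 1066 CPM in DG and 750 to 1038 CPM in HY, and LDB3 at 1315 to 1927, 1857 to 2252 and 1871 to 2087 CPM. MYOZ1 was at 362 to 477 CPM in CN, 314 to 479 CPM in DG and 424 to 555 CPM in HY. All of these ranges overlapped. The log2 fold changes of HY over CN were 0.29 for TCAP (95% interval -0.02 to 0.60), 0.25 for LDB3 (-0.02 to 0.53), 0.23 for MYOZ1 (-0.07 to 0.52) and -0.01 for MURC (-0.29 to 0.28). Changes larger than these bounds are outside the intervals, but a miss of the FDR threshold does not show equal levels.

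**Figure D2:**
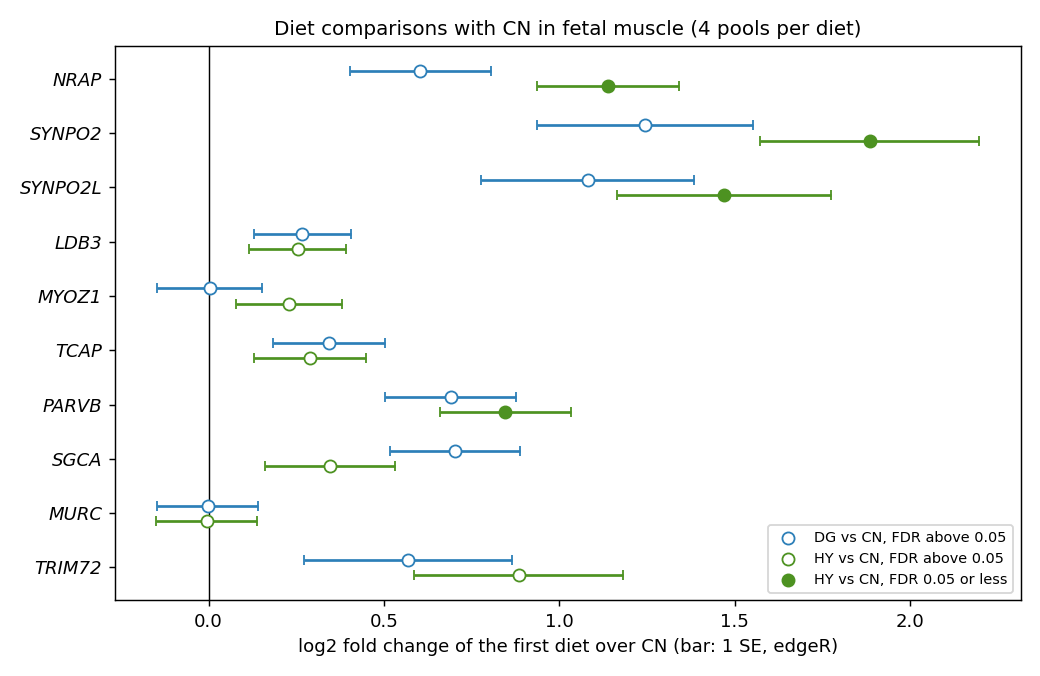
Fold changes against CN in muscle. The x axis gives the log2 fold change of DG (blue) or HY (green) over CN, each row is 1 gene, bars are 1 SE of the edgeR fit and filled points have an FDR of 0.05 or less. Filled points are found for HY in SYNPO2 at 1.89, SYNPO2L at 1.47, NRAP at 1.14 and PARVB at 0.85, and none for DG.

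Set beside all loci, the 10 genes lay to the higher side. The median log2 fold change of the 10 was 0.60 for HY over CN, with -0.02 over all 18573 loci, and 9 of the 10 were positive as compared with 47.9% of all loci. In 4 of the 10 all HY pools lay above all CN pools, as was so for 7.16% of loci, and in 3 of the 10 all DG pools did, as was so for 5.5% of loci. For DG over CN no gene of the 10 passed an FDR of 0.05, where 1.01% of loci did, while 6 had an unadjusted p under 0.05, as did 16.3% of loci. At an FDR of 0.20, which 5.45% of loci passed with DG higher, 5 genes passed, namely SYNPO2, SGCA, PARVB, SYNPO2L and NRAP, and the median of the 10 was 0.59 against -0.0024 for all loci, with 9 of 10 positive as compared with 49.7%. The edgeR likelihood-ratio test and DESeq2 each called 4 genes in DG over CN at an FDR of 0.05, where they called 3.33% and 4.04% of loci. The fit with pool number as a block called 1, SYNPO2 (edgeR FDR = 0.0495), and 0.711% of loci. Between DG and HY none of the 10 was called by edgeR, by the likelihood-ratio test or by DESeq2, with 0% of loci called by edgeR, and 1 had an unadjusted p under 0.05, as did 2.14% of loci. DG and HY were compared with the same CN pools, so their values are not separate evidence. The study had also named NRAP, SYNPO2L, TCAP, PARVB, TRIM72 and SGCA as lower in CN from these same pools. The standing of the 10 genes beside all loci is therefore not independent evidence.

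The HY over CN calls changed when single pools were left out. The share of all loci called was not counted in these fits, so a loss shared by all loci cannot be told apart. Without CN M2 none of the 4 genes passed, without CN M1, HY F1 or HY F2 1 passed, without CN F1 2 passed and without HY M1 3 passed. Log2 fold changes stayed within 1.02 to 1.29 for NRAP, 1.57 to 2.15 for SYNPO2, 1.19 to 1.86 for SYNPO2L and 0.70 to 0.97 for PARVB over the 12 omissions, and the FDR of SYNPO2 rose to at most 0.0516.

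The summed skeletal muscle marker level had exact permutation p-values of 0.457 for HY against CN and 0.914 for DG against CN (two-sided, 4 pools per diet, smallest possible p of 0.0286). Relative to marker counts of the same library, SYNPO2 was 3.58-fold, SYNPO2L 2.78-fold, NRAP 2.11-fold and PARVB 1.72-fold higher in HY than in CN, with no overlap between the pools of these diets. With ACTA1 as the sole marker SYNPO2 alone stayed apart, at 2.66-fold, and the ratios of SYNPO2L, NRAP and PARVB were 2.07, 1.56 and 1.27 with overlapping pools (exact permutation p of 0.114, 0.0857 and 0.171). Adipocyte markers averaged 10.4 CPM in CN, 34.1 CPM in DG and 19.5 CPM in HY muscle, and their part in the results was not tested.

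Reads of some genes were split over paired loci, and the split differed between muscle pools. LDB3, MYOZ1 and SGCA each had a second locus of the same name and coordinates. CN M1, DG F1 and HY F2 had the highest share of reads on that second locus for all 3 genes, 0.863% to 1.18% against 0.192% to 0.645% in the other 9 pools for LDB3, 21.7% to 26.7% against 11.9% to 19.4% for MYOZ1, and 20.5% to 21.3% against 6.25% to 17.1% for SGCA. Over all 1861 such pairs the 3 pools did not stand apart as a set, with shares of 7.48% to 8.21% against 6.95% to 7.51% in the other pools. TRIM72 was highest within its diet in the same 3 pools. Without these 3 pools, a choice made after seeing the data, NRAP alone was called in HY over CN (log2 fold change 1.02, edgeR FDR = 0.0415), where 0.563% of loci were called. SYNPO2, SYNPO2L and PARVB then had log2 fold changes of 1.62, 1.20 and 0.74 with FDR of 0.0713, 0.141 and 0.107, and SGCA alone was called in DG over CN (0.96, edgeR FDR = 0.0475), where 0.0929% of loci were called.

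Reads from the place where the newer annotation puts SYNPO2L were also counted. A locus listed only as ENSOARG00000007887, at chr25:29508764-29515664, was at 3.56, 6.09, 6.01 and 4.40 CPM in CN, 17.8, 9.98, 18.6 and 11.4 CPM in DG and 20.7, 32.8, 14.4 and 13.2 CPM in HY. No CN pool reached any other pool. The log2 fold changes were 2.02 for HY over CN (SE 0.31, edgeR FDR = 0.00928) and 1.52 for DG over CN (SE 0.31, edgeR FDR = 0.0330). Whether this locus is part of SYNPO2L was not tested.

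Other genes of the same structures were read from 3 lists, a Z-disc list, a costamere and dystrophin complex list and a sarcolemma and membrane repair list, none of which holds any of the 10 genes. Of 73 listed genes 66 were tested in muscle. HY over CN called 5 of 26 Z-disc genes, 4 of 26 costamere genes and 0 of 14 sarcolemma genes, all higher. Among all loci, 2.44% were called higher in HY. The lists had median log2 fold changes of 0.37, 0.35 and 0.12, with -0.02 over all loci. At an FDR of 0.20, which 16% of loci passed, the sarcolemma list held 2 higher genes and 1 lower gene. DG over CN called 1, 2 and 0 genes, all higher, where 1.01% of all loci were called in either direction. DG against HY called none in any list, with 0% of loci called.

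Among Z-disc genes, XIRP2, a xin repeat protein that binds actin, rose by 1.22 on the log2 scale in HY over CN (SE 0.24, edgeR FDR = 0.0205), and MYOZ3, the relative of MYOZ1 known as calsarcin-3, by 1.54 (SE 0.34, edgeR FDR = 0.0314). ANKRD23, a titin-associated ankyrin repeat protein, rose by 0.95 (edgeR FDR = 0.0175) and the muscle filamin FLNC by 0.71 (edgeR FDR = 0.0179). Filamin C is a known binding partner of the SYNPO2 family. MYOZ2 (calsarcin-1, of slow fibers) gave -0.02, ACTN2 (alpha-actinin) 0.37 and TTN (titin) 0.39, with FDR of 0.958, 0.229 and 0.391.

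Among costamere genes, DAG1, the dystroglycan precursor, rose by 0.83 (SE 0.14, edgeR FDR = 0.0123), SVIL (supervillin) by 0.75 (edgeR FDR = 0.0293) and TLN1 (talin) by 0.47 (edgeR FDR = 0.0318). DG over CN called DAG1 at 0.67 (edgeR FDR = 0.0349) and PLEC, encoding plectin, at 0.87 (edgeR FDR = 0.0433). PLEC was also the remaining costamere call of HY over CN, at 0.74 (edgeR FDR = 0.0497). The partners of PARVB in its complex, ILK and LIMS2, gave log2 fold changes of HY over CN of 0.40 and 0.64, with edgeR FDR of 0.220 and 0.0930. The caveolar partners of MURC gave -0.01 for CAV3 and 0.19 for PTRF, and the repair gene DYSF gave 0.23, with FDR of 0.978, 0.317 and 0.212.

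Levels in the 3 tissues were compared on one scale, with the counts of all loci of a gene summed and all 36 libraries normalized together. Muscle was above perirenal fat for 9 of the 10 genes, and SYNPO2 was the exception. Muscle was above subcutaneous fat for 6 genes and below it for SYNPO2 at an FDR of 0.05 (edgeR, pool label as block). Subcutaneous fat was above perirenal fat for 9 genes, all but MURC. Among all gene names, 82.7% were called between muscle and perirenal fat, 65.3% between the fat depots and 72.5% between muscle and subcutaneous fat, 37.2% with muscle higher, so a call by itself sets these genes apart little, and the sizes follow.

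**Figure D3:**
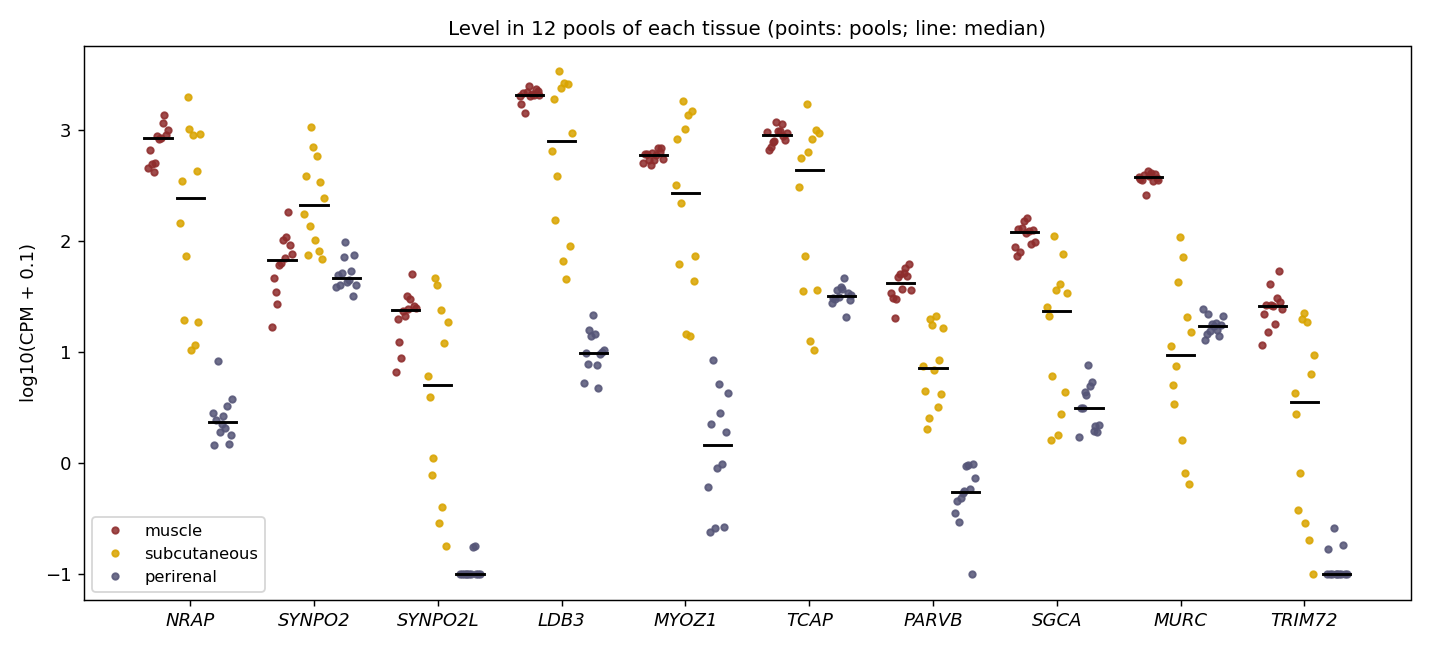
Level of the 10 genes in each tissue. The y axis is log10 of CPM plus 0.1, points are the 12 pools of a tissue and lines are medians. Muscle pools of LDB3, MYOZ1 and TCAP lie close together, subcutaneous pools are spread widely, and SYNPO2 is the gene for which the subcutaneous median of 211 CPM exceeds that of muscle at 67.2 CPM.

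Z-disc genes other than SYNPO2 had their highest median in muscle. LDB3 had a lowest, median and highest level of 1437, 2092 and 2521 CPM in muscle, 45.6, 802 and 3411 CPM in subcutaneous fat and 4.65, 9.84 and 21.7 CPM in perirenal fat. MYOZ1 had 482, 604 and 687 CPM in muscle, 13.8, 272 and 1830 CPM in subcutaneous fat and 0.142, 1.37 and 8.45 CPM in perirenal fat. The muscle range of both lay inside the subcutaneous range. The log2 differences of muscle over subcutaneous fat were 1.73 for LDB3 (edgeR FDR = 0.0488) and 1.32 for MYOZ1 (edgeR FDR = 0.143), and those over perirenal fat were 7.70 and 8.42.

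NRAP had a lowest, median and highest level of 423, 848 and 1376 CPM in muscle, 10.3, 247 and 1973 CPM in subcutaneous fat and 1.35, 2.28 and 8.29 CPM in perirenal fat. The log2 difference of muscle over subcutaneous fat was 2.06 (edgeR FDR = 0.0531) and over perirenal fat 8.22. SYNPO2L followed the same order, with medians of 24.1 and 4.96 CPM in muscle and subcutaneous fat (log2 difference 1.87, edgeR FDR = 0.0447), and had 2 reads in all 12 perirenal pools together. The muscle over subcutaneous calls of LDB3 and SYNPO2L were lost in 8 and 7 of the 12 fits that left out 1 pool, and also without the low-count filter or without the block.

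Membrane genes were the most separated between muscle and subcutaneous fat. MURC was at 261, 376 and 432 CPM in muscle and 0.558, 9.40 and 109 CPM in subcutaneous fat (lowest, median and highest), without overlap, and the log2 difference was 5.17 (SE 0.67, edgeR FDR = 4.43e-05). SGCA, TRIM72 and PARVB were higher in muscle by 2.78, 2.81 and 2.47 on the log2 scale (edgeR FDR of 0.00399, 0.00385 and 1.99e-06). PARVB and SGCA were higher in muscle in all 12 pools and TRIM72 in 11. In perirenal fat, TRIM72 had 5 and PARVB 71 reads over all 12 pools.

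MURC and TCAP could not be compared cleanly with perirenal fat. There, the TCAP locus also held STARD3, and the MURC locus also held ENSOARG00000007598. Levels of 20.6 to 46.4 CPM and 12.9 to 24.6 CPM in perirenal fat may be those of the neighbours, which cannot be told apart. With the same names joined in every tissue, MURC with ENSOARG00000007598 was higher in muscle than in subcutaneous fat by 3.28 on the log2 scale, and subcutaneous fat exceeded perirenal fat by 1.27 (edgeR FDR = 1.53e-05). For the MURC name alone the latter difference was -0.69 (edgeR FDR = 0.333). With PNMT, STARD3 and TCAP together, muscle exceeded subcutaneous fat by 1.76 (edgeR FDR = 0.0492), which passed the threshold that TCAP alone missed, at 2.02 (edgeR FDR = 0.0646).

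SYNPO2 had another pattern. Its lowest, median and highest levels were 16.9, 67.2 and 184 CPM in muscle, 68.8, 211 and 1075 CPM in subcutaneous fat and 32.4, 47.0 and 98.8 CPM in perirenal fat. Subcutaneous fat exceeded muscle in 9 of 12 pools, and muscle exceeded perirenal fat in 6 of 12. The log2 difference of muscle over subcutaneous fat was -1.91 (SE 0.38, edgeR FDR = 0.000902), and that of muscle over perirenal fat was 0.30 (SE 0.19, edgeR FDR = 0.146). SYNPO2 is also known from smooth muscle, whose markers summed to 233 to 428 CPM in muscle, 186 to 934 CPM in subcutaneous fat and 245 to 847 CPM in perirenal fat, and their part in this result was not tested.

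The spread of the subcutaneous pools ran alongside their muscle marker level. Among the 12 pools, LDB3 was lowest, at 42.6 CPM, in HY F1, the pool with the lowest marker sum of 1014 CPM, and highest, at 3498 CPM, in DG F1, the pool with the highest marker sum of 163145 CPM. Both quantities come from the same libraries, and the pools differ in several ways at once.

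**Figure D4:**
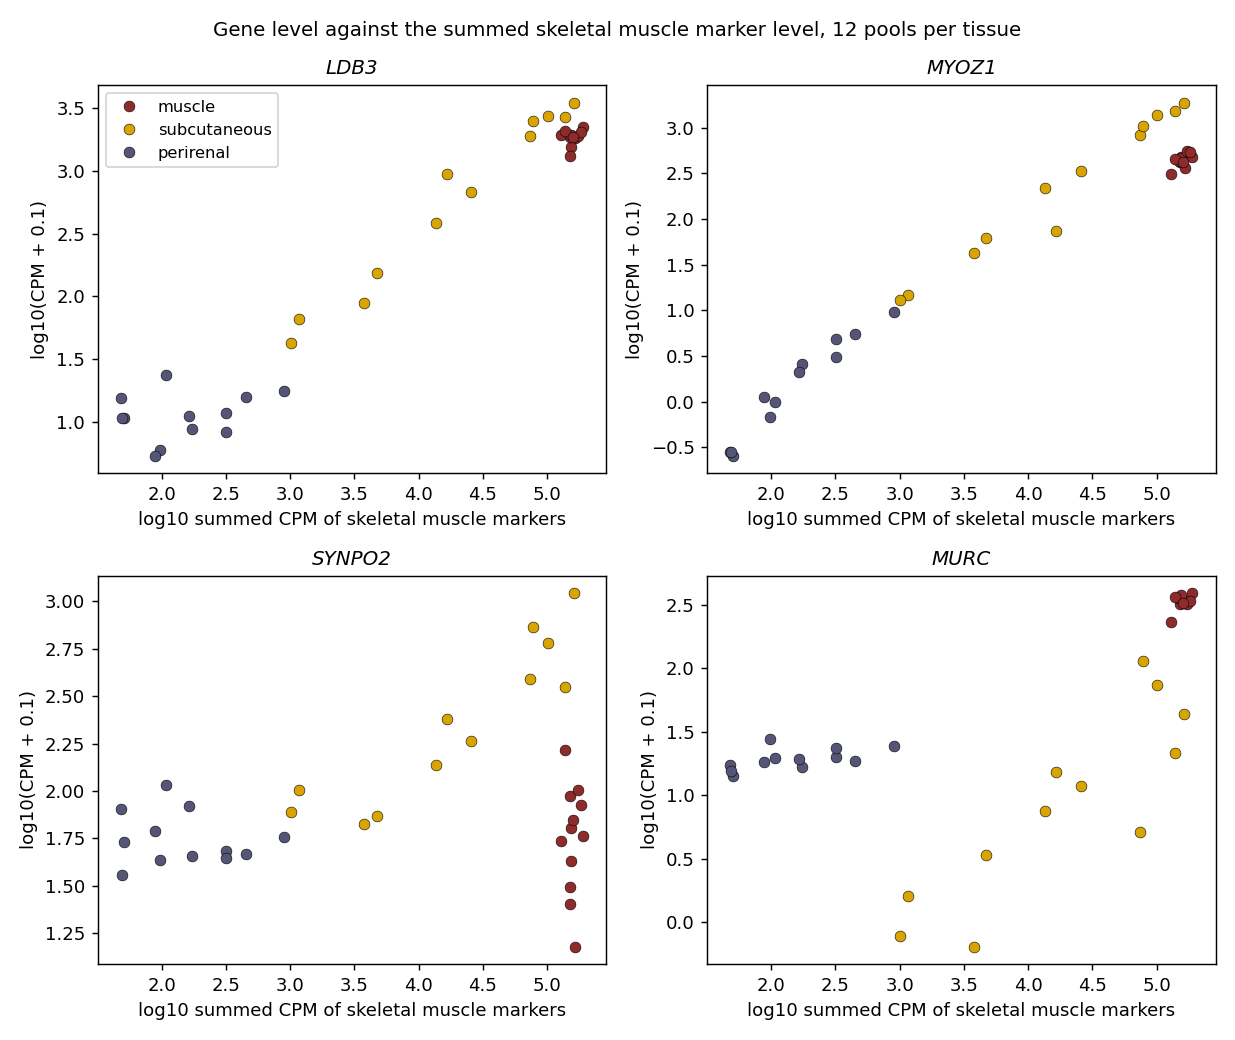
Level of LDB3, MYOZ1, SYNPO2 and MURC against skeletal muscle marker level. The x axis is log10 of the summed CPM of the marker genes, the y axis log10 of CPM plus 0.1, and each point is 1 pool, colored by tissue. At marker sums near those of muscle, subcutaneous pools carry LDB3 and MYOZ1 at or above the muscle level, SYNPO2 above it and MURC below it.

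Counts were therefore also set relative to the counts of the skeletal muscle markers in the same library, as counts per 1000 marker counts. On this scale 4 Z-disc genes were higher in subcutaneous fat in 12 of 12 pools, SYNPO2 by 34.0-fold, MYOZ1 by 3.43-fold, LDB3 by 2.59-fold and TCAP by 1.97-fold (exact permutation test by sign flips, two-sided p = 0.000488 for each, the smallest value that 12 pools allow). MURC was lower in 12 of 12 pools, at 0.208 times the muscle ratio (exact permutation p = 0.000488). NRAP was 1.87-fold higher, in 11 of 12 pools (exact permutation p = 0.0166). SYNPO2L, PARVB and SGCA gave ratios of 1.42, 1.63 and 1.15 with exact permutation p of 0.335, 0.268 and 0.539, and TRIM72 was not tested because 1 pool had no read. These 9 p-values are not adjusted. Higher ratios were not particular to the 10 genes, and the share of all gene names with a higher ratio was not counted. A ratio also rises where cells without these markers carry the gene. These p-values therefore do not speak to levels within muscle fibers. Without HY M2, MYOZ2, ANKRD2, CSRP3 and ACTN2 had subcutaneous medians of 13.8, 0.789, 10.6 and 46.0 per 1000 marker counts. Their muscle medians were 3.93, 0.275, 1.74 and 26.3. In perirenal fat, where marker counts were low, the median ratios of SYNPO2, LDB3 and MYOZ1 were 477, 60.0 and 9.86. The SYNPO2 ratio was highest in DG M1 and HY F1, at 86.3 and 76.0 counts per 1000 marker counts, the subcutaneous pools with the lowest marker sums. Leaving out each pool in turn, or dropping the slow fiber genes from the markers, changed none of these calls, and with ACTA1 as the sole marker SGCA reached 1.51-fold (exact permutation p = 0.0405).

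**Figure D5:**
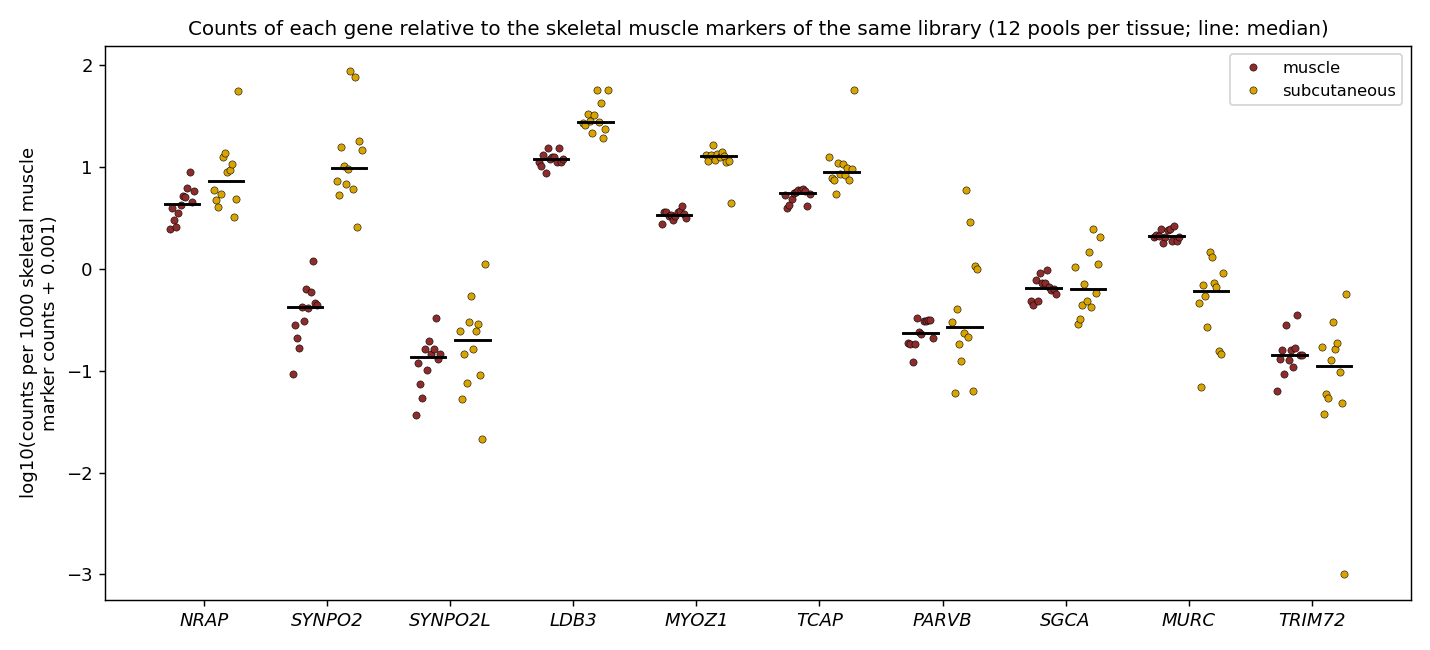
Counts relative to muscle markers. The y axis is log10 of the counts per 1000 skeletal muscle marker counts of the same library plus 0.001, points are the 12 pools of muscle (dark red) and subcutaneous fat (yellow), and lines are medians. SYNPO2, LDB3, MYOZ1 and TCAP sit higher and MURC sits lower in subcutaneous fat, and 1 subcutaneous pool stands apart in NRAP, TCAP and MYOZ1.

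The pool that stood apart was HY M2. It had 55.0 NRAP counts per 1000 marker counts, where the other 11 subcutaneous pools had 3.18 to 13.6, and 57.0 TCAP counts, where the others had 5.33 to 12.4. MYOZ1 moved the other way, with 4.41 against 11.1 to 16.2. Slow fiber genes were high in the same pool, TNNT1 (slow skeletal troponin T) at 174 against 16.0 to 37.4, MB (myoglobin) at 113 against 3.66 to 15.6 and the slow-fiber calsarcin MYOZ2 at 66.3 against 7.28 to 18.8. Fast fiber genes were low, MYLPF (fast regulatory light chain) at 23.3 against 107 to 210 and TNNT3 (fast troponin T) at 13.97 against 48.0 to 97.4. MYLPF and TNNT3 are part of the marker sum, so the ratios of this pool depend on the markers chosen. Per 1000 ACTA1 counts, the 12 subcutaneous pools spanned 23.9 to 209 for NRAP, with a median of 90.6. For TCAP they spanned 55.2 to 187, with a median of 121. In the other 11 pools the medians of TNNT1 and MB, 25.8 and 9.92, also lay above those of muscle, 7.54 and 2.55. Those of MYLPF and TNNT3 were 164.5 and 75.2, with 134 and 80.9 in muscle. The part of fiber type in the levels of NRAP, TCAP and MYOZ1 in this pool was not tested. Without HY M2 the log2 ratio of subcutaneous fat to muscle was 0.69 for NRAP and 0.76 for TCAP, as compared with 0.91 and 0.98 with all 12 pools.

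Diet differences in subcutaneous fat were large in value, and none passed the threshold over all loci. All 10 genes had a higher fitted level in DG than in CN, as did 49.4% of loci, with log2 fold changes of 1.49 to 3.19, but SE were 0.59 to 1.57 and edgeR FDR were 0.257 to 0.594. None was called, nor was any of the 18008 loci tested (0%), while 3 of the 10 had an unadjusted p under 0.05, as did 15.0% of loci. The median over the 10 was 1.90, that over all loci -0.01. The Z-disc, costamere and sarcolemma lists, which hold none of the 10, had medians of 1.72, 0.54 and 0.28. The summed skeletal muscle marker level was 1.87-fold in DG over CN, 0.518-fold in HY over CN and 3.61-fold in DG over HY. Its exact permutation p-values were 0.629, 0.629 and 0.4. The direction of DG over CN was thus not particular to the 10 genes. HY over CN ranged from -0.08 to 1.32 and DG over HY from 0.70 to 2.61, with no gene called by edgeR or DESeq2, 0% of loci called, and 0 and 1 genes with an unadjusted p under 0.05, as compared with 4.34% and 18.1% of loci. Relative to marker counts, NRAP was 2.19-fold higher in DG than in CN without overlap (unadjusted exact permutation p = 0.0286, the smallest possible), and 1.52-fold with overlap when ACTA1 was the sole marker (exact permutation p = 0.2). The study called MURC and SYNPO2L higher in DG than in CN in these same samples, in its own test at an FDR of 0.05. Its qRT-PCR on the same RNA gave similar patterns for both. Neither gene was called here by edgeR or DESeq2.

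MURC was at 11.8, 5.05, 3.27 and 7.34 CPM in CN, 43.7, 113, 1.52 and 73.0 CPM in DG and 0.673, 21.3, 0.542 and 15.1 CPM in HY. All DG pools but M1 lay above all pools of the other diets, and DG M1 lay below all CN pools. The log2 fold change of DG over CN was 3.06 (SE 1.25, edgeR FDR = 0.311). SYNPO2L was at 6.30, 3.86, 0.681 and 1.01 CPM in CN and 48.3, 41.5, 0.189 and 24.3 CPM in DG, with DG M1 again the lowest (log2 fold change 3.19, edgeR FDR = 0.343). DG M1 had 1167 CPM of summed skeletal muscle markers, where the other DG pools had 78028 to 163145 CPM and the CN pools 4719 to 74058 CPM.

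PARVB had the smallest SE of DG over CN. It was at 7.66, 4.36, 1.91 and 2.45 CPM in CN, 20.3, 18.2, 6.82 and 21.5 CPM in DG and 2.88, 8.67, 4.02 and 16.2 CPM in HY. Only the DG pool M1 lay within the CN range. The log2 fold change of DG over CN was 1.99 (SE 0.59, edgeR FDR = 0.257), and DESeq2, which called 1.92% of loci, gave 2.04 with an FDR of 0.0315. No other gene of the 10 was called by DESeq2 in subcutaneous fat.

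The diet differences of subcutaneous fat and muscle were compared directly as an interaction, and none of the 10 genes was called, with 0% of 14017 gene names called for each of the 3 diet pairs. Unadjusted p was under 0.05 for PARVB and SYNPO2, and the share of all gene names under 0.05 was not counted. For SYNPO2, DG over HY differed by 2.36 on the log2 scale (SE 0.93, unadjusted p = 0.0278, edgeR FDR = 0.258). Also for SYNPO2, HY over CN differed between subcutaneous fat and muscle by -2.05 on the log2 scale (SE 0.89, unadjusted p = 0.0427, edgeR FDR = 0.798). For PARVB, DG over CN was 1.32 higher there (SE 0.59, unadjusted p = 0.0463, edgeR FDR = 0.768), and DG over HY was 1.29 higher (unadjusted p = 0.0498, edgeR FDR = 0.309). MURC joined with ENSOARG00000007598 differed by 1.24 in DG over CN (unadjusted p = 0.00449, edgeR FDR = 0.691) and by 1.36 in DG over HY (unadjusted p = 0.00248, edgeR FDR = 0.136).

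In perirenal fat 7 of the 10 genes had enough reads to be tested, and none was called in any diet pair. Of the 18246 loci, 0.115% were called for DG over CN and 0% for HY over CN and for DG over HY. SGCA was at 1.83, 3.33, 3.46 and 4.78 CPM in CN, 4.45, 8.31, 5.25 and 5.68 CPM in DG and 2.12, 2.30, 2.03 and 2.35 CPM in HY. Every DG pool lay above every HY pool, which was so for 3.19% of loci. The log2 fold change of DG over HY was 1.42 (SE 0.29, edgeR FDR = 0.209), with FDR of 0.0175 in the likelihood-ratio test and 0.00795 in DESeq2, which called 0.225% and 0.671% of loci. Smooth muscle markers also lay higher in every DG pool, at 318 to 847 CPM, than in the HY pools, at 258 to 305 CPM, and their part in the SGCA result was not tested. SGCA had 19 to 73 reads per perirenal library. Unadjusted p was under 0.05 for 1 gene in DG over CN, 0 in HY over CN and 2 in DG over HY, as compared with 9.90%, 2.31% and 9.86% of loci.

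No gene of the 10 differed between male and female pools at an FDR of 0.05 with diet in the model, where 0%, 0% and 0.0164% of loci were called in muscle, subcutaneous and perirenal fat. In muscle the log2 differences of male over female ranged from -0.32 for TRIM72 to 0.18 for SGCA.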

How the data were processed

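Libraries of 36 RNA pools were made with an mRNA protocol and sequenced from a single end. Pools of a diet share dams, so p-values measure the spread between pools. The authors mapped reads with TopHat2 2.0.4 to Oar_v3.1, assembled and merged transcripts with Cufflinks 2.1.1 within each tissue, and deposited raw read counts per merged locus. HTSeq is named in the submitters' processing notes without a version, and its strand and multi-read settings are not given in the sources used here, so overlapping, antisense and twin loci could share reads. Depth is the sum of all counts of a library. It limits the precision of the genes with few reads.

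From these counts, each tissue was fitted with edgeR 4.0.16 in R 4.3.3 (TMM, filterByExpr at 10 counts and at least 15 in total, robust quasi-likelihood F test, all 12 pools, Benjamini-Hochberg over all loci). SE is the log2 fold change divided by the root of F, and 95% intervals are normal approximations. In each diet fit a gene is its locus with the most reads. Tissue pairs were fitted on counts summed per gene name with the pool label as block, since a label held the same fetuses in each tissue. Fits were tested on simulated data with a spread fixed in advance. For the diet fits, recovery of changed genes was required in muscle and perirenal fat only, not in subcutaneous fat. Alternatives were RLE scaling, no filter, a likelihood-ratio test, DESeq2 1.42.0, a replicate block, subsets and omissions of pools, thinning and a marker covariate. Within a tissue, pools with the same number correlated by -0.05, 0.20 and 0.05 on average in muscle, subcutaneous and perirenal fat, with single pairs down to -0.44, so numbers were not taken to pair pools. No 2 of the 54 library pairs within groups agreed within sampling noise (chi-square per degree of freedom of 11.4 or more).

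Named were all 10 genes, up to 8 list genes with the lowest p among those called in each muscle comparison, and fixed partners and relatives. Some list genes that this rule names are not reported here. SYNPO2L's neighbours, HY M2 and the 3 pools with high second-locus shares were singled out after their values were seen. The genes and lists were chosen with earlier results of these data known. No sequence was printed, as none was used here. Figures were drawn with matplotlib 3.10.9.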

Additional observations from a re-analysis of the deposited data

Results flagged for a closer look

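Of 93 sets of 4 pools checked, 5 held a pool far from the other 3 by Dixon's 95% criterion, and chance gives about 1 in 20 sets. NRAP in muscle was at 453 CPM in DG F1, with the other DG pools at 768 to 794 CPM. MYOZ1 in subcutaneous fat was at 1534 CPM in HY F2, with the other HY pools at 12.9 to 73.0 CPM, and the summed skeletal muscle marker level of the same pool was 138773 CPM against 1014 to 16542 CPM. LDB3 in perirenal fat was at 5.26 CPM in HY F1, with the others at 10.6 to 11.7 CPM. The summed marker level in perirenal fat was 899.6 CPM in CN M2, with the other CN pools at 50.7 to 173 CPM. The locus ENSOARG00000007887, beside MYOZ1, was outside the 10 genes and had a mean of 20.3 CPM in HY muscle, above the CN pools at 3.56 to 6.09 CPM.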

How the results depend on the processing

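The omissions of single pools in turn were set aside here, while fits on other subsets of pools were counted. Across these alternatives, 120 of 132 summary results and 885 of 960 single-gene and list results were taken as kept. For differences this meant the same direction and side of the threshold. A count of called genes could change by a small factor and still be taken as kept, as with the PARVB call lost under the replicate block. With the replicate block, DG over CN in muscle gave 1 call, HY over CN in subcutaneous fat turned to -0.22 for LDB3, -0.63 for MYOZ1 and -0.50 for MURC, and PARVB in HY over CN in muscle had an FDR of 0.0580. Calls of DG over CN in muscle, 0 in the edgeR quasi-likelihood test, were 4 with the likelihood-ratio test, 4 with DESeq2, 5 at an FDR of 0.20 and 1 in the 9 pools, a subset chosen after seeing the data, where HY over CN gave 1. DESeq2 called 1 gene in subcutaneous DG over CN, and it and the likelihood-ratio test called 1 each in perirenal DG over HY. With plain CPM the muscle marker difference of DG over CN was 0.025 in muscle and 0.050 in perirenal fat, and with ACTA1 alone the log2 ratio of SGCA, subcutaneous fat to muscle, was 0.59 in place of 0.20.

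Differences near 0 changed sign. MYOZ1 in muscle DG over CN was -0.0011 without the filter, -0.0018 with the block, -0.0095 in 8 pools and -0.0041 after thinning. MURC in muscle was -0.014 with the block and -0.012 after thinning in DG over HY, 0.0034 after thinning in HY over CN and 0.12 in the 9 pools in DG over CN. With the marker level as covariate in subcutaneous fat, DG over CN was -0.034 for MYOZ1, HY over CN was 0.28 for SYNPO2 and -0.48 for MYOZ1, and DG over HY was -0.88 for NRAP, -0.10 for SYNPO2L, -1.19 for TCAP and -0.69 for SGCA. The tissue difference of HY over CN without the block was 0.13 for NRAP, 0.76 for TCAP, 0.036 for LDB3, 0.022 for MYOZ1, 0.48 for MURC and 0.021 for TRIM72. It was -0.040 for PARVB without the filter, 0.26 for TCAP and 0.080 for MURC in a joint fit of 36 libraries, and 0.074 for TCAP with joined names. MURC with joined names was 1.27 for subcutaneous over perirenal fat.

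Leaving out each pool in turn gave 0 to 2 calls of DG over CN and 0 to 4 of HY over CN in muscle, the latter 0 without CN M2. The share of all loci called in each of these fits was not counted. Log2 differences that changed sign ranged in muscle from -0.073 to 0.13 (MYOZ1, DG over CN), and for MURC from -0.084 to 0.15 (DG over CN), -0.055 to 0.027 (HY over CN) and -0.073 to 0.15 (DG over HY). In DG over HY they ranged from -0.044 to 0.15 for TCAP and -0.053 to 0.040 for LDB3. In subcutaneous HY over CN the ranges were -0.60 to 0.49 for SYNPO2, -1.15 to 1.21 for LDB3, -3.08 to 1.02 for MYOZ1, -0.32 to 0.88 for MURC and -0.048 to 1.63 for SGCA, and SGCA in DG over HY ranged from -0.12 to 1.92. In perirenal fat they were -1.24 to 1.20 for MYOZ1 and -0.30 to 0.030 for MURC (DG over CN), -0.87 to 0.21 for NRAP, -0.086 to 0.35 for SYNPO2, -0.18 to 0.020 for TCAP, -0.36 to 0.19 for LDB3, -1.51 to 0.95 for MYOZ1 and -0.27 to 0.051 for MURC (HY over CN), and -0.54 to 1.07 for MYOZ1 and -0.11 to 0.087 for MURC (DG over HY). The tissue difference ranged from -0.21 to 1.07 for SYNPO2 (DG over CN), -2.46 to 0.15 for NRAP, -1.69 to 1.27 for TCAP, -0.58 to 0.45 for PARVB, -2.20 to 0.10 for LDB3, -1.52 to 0.45 for MURC, -1.89 to 0.24 for TRIM72 and -0.92 to 1.10 for SGCA (HY over CN), and -0.27 to 1.71 for SGCA (DG over HY). Marker level differences ranged in muscle from -0.11 to 0.079 (DG over CN) and -0.18 to 0.011 (DG over HY), in subcutaneous fat from -2.23 to 0.14 (HY over CN), and in perirenal fat from -0.58 to 0.80, -1.02 to 0.36 and -0.044 to 1.03. The causes were not tested. Loci overlapping a missing name were not used, since every name had a locus. SYNPO2L, TRIM72 and PARVB had too few perirenal reads for a diet test.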

Other observations

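Muscle markers in perirenal fat differed by sex of the pool. Their summed level was 163 to 899.6 CPM in the 6 male pools, with a median of 318 CPM, and 48.2 to 108 CPM in the 6 female pools, with a median of 69.4 CPM. The ratio was 4.68-fold (two-sided exact permutation p = 0.00216, the smallest possible, and 0.00649 adjusted over 3 tissues), with each male pool above each female pool. In muscle the exact permutation p was 0.924 and in subcutaneous fat, where males were at 0.227 times the female level, 0.156. Perirenal MYOZ1, the fast-fiber calsarcin, averaged 4.50 CPM in male and 0.499 CPM in female pools, a log2 difference of 3.20 (SE 0.54, edgeR FDR = 0.104).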
